A study of Mus musculus with 2 samples.

Results

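Translation initiation factor genes were taken as the mouse genes whose symbol starts with Eif and a digit from 1 to 6, without Eif4ebp1, Eif2ak2 and Eif2s3y. The rule found 53 genes among the 23297 that could be named in the deposited data. Of these, 51 reached 1 FPKM in at least 1 library and were compared, among 13817 such genes in all. The remaining members were Eif4e1b, a germline relative of the cap-binding protein, at 0.163 FPKM in the Dnmt3l knockout and 0.036 FPKM in the wild-type library, and Eif4a3l1, an Eif4a3-like gene, listed at 0 in both. There were 2 libraries, 1 from Dnmt3l knockout and 1 from wild-type C57BL/6 mice. Each held poly(A) RNA of spermatogonial progenitor cells, the germ cells that sustain spermatogenesis, isolated from testes at 8 days after birth. Dnmt3l encodes a cofactor, itself without enzyme activity, of the enzymes that set new DNA methylation, and the comparison asks how the transcripts of the cells differ without it. How the cells were isolated, the number of animals behind each library and the nature of the knockout allele are not given in the sources used here. Since each genotype has 1 library, no difference can be checked against replicates, so every value describes these libraries and no test was made.

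Initiation begins when eIF2, loaded with GTP and the initiator tRNA, joins the small ribosomal subunit together with eIF1, eIF1A, eIF3 and eIF5. The cap-binding complex eIF4F, made of the cap-binding protein eIF4E, the scaffold eIF4G and the helicase eIF4A, recruits the mRNA, which is then scanned to a start codon. eIF5B joins the large subunit, eIF2B recharges eIF2 with GTP, and kinases that phosphorylate the alpha subunit of eIF2 or proteins that sequester eIF4E slow the process. In the testis, mTOR signalling, which acts on initiation through the inhibitors of eIF4E, is known to accompany the differentiation of spermatogonia.

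Levels are FPKM, fragments scaled to transcript length and library size, summed over the RefSeq transcripts of a gene and the transcript models that were assembled from the reads of that library on the same strand. Ratios are log2((knockout FPKM + 1)/(wild-type FPKM + 1)), and bounds are the summed lower and upper bounds that the deposited data give for each transcript. They cover the estimate within a library, not differences between animals. Read counts are not in the data used here, so the depth is unknown; the coverage behind 1 FPKM had a median of 3.45 in the knockout and 3.13 in the wild-type library. The median gene had a log2 ratio of 0.21, and a relative ratio has this subtracted. Dnmt3l had a listed value of 0 in the knockout and 1.67 FPKM in the wild-type library. All 10 spermatogonial markers examined were above 0 in both libraries, with a summed level of 978 FPKM in the knockout and 1108 FPKM in the wild-type library. Of them 5 were higher in the knockout library, such as Id4 at 35.0 FPKM in the knockout and 14.4 FPKM in the wild-type library, and 5 were lower, such as Kit at 5.93 FPKM in the knockout and 21.7 FPKM in the wild-type library and Zbtb16 at 27.9 FPKM in the knockout and 55.4 FPKM in the wild-type library. Of 37 markers of other testis cells that could be compared, 31 were higher in the knockout library, where 66.0% of all genes were. The summed level of the 37 was 2619 FPKM in the knockout and 1426 FPKM in the wild-type library. Star, a Leydig cell gene, and Hbb-bt, an erythroid gene, were listed at 0 in both, and Cd68, a macrophage gene, had a listed 0 in the knockout and 24.6 FPKM in the wild-type library. Of the 8 macrophage and leukocyte markers, 6 were higher in the knockout library and 2 lower, Cd68 among the lower. Cd68 is a neighbour of Eif4a1, and that locus is described below. The part of such cells in the values below was not tested, and fewer cells of a type cannot be told apart from less RNA per cell.

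Sequences of the members that bear on their own initiation and transcription are shown first. The bases around a start codon set how readily it is recognised, and a purine at the third base before it together with a G directly after it is the favourable context. Of 50 members with a matched coding start, 23 had both features, 46.0% against 45.7% of 12877 genes compared. Eif1, Eif1b and Eif3b had neither feature, 6.0% of the 50 members against 6.27% of those genes. The eIF1 protein is known to make the ribosome reject poor start codon contexts, its own included. Eif4g2, which encodes an eIF4G-like protein that does not bind eIF4E, is known to start at a codon other than ATG. The sequences are from GRCm38 with the GENCODE M21 annotation, on the strand of the gene, with the annotated start codon in capitals.
Eif1 (chr11:100320130-100320132, plus strand): atcgtatcgtATGtccg
Eif1b (chr9:120492811-120492813, plus strand): ctagtgtcgcATGtcca
Eif3b (chr5:140419361-140419363, plus strand): gcgcgggcccATGcagg
Eif5 (chr12:111539616-111539618, plus strand): ataagccaaaATGtctg
Eif4g2 (chr7:111081545-111081547, minus strand): agccgccaaaGTGgaga
The coordinates are those of the start codon. Eif5, whose product opposes eIF1 at start codon selection, had the purine but not the G.

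Transcripts that begin with a C followed by a run of pyrimidines belong to a class whose translation depends on mTOR signalling, and many genes of the translation machinery are in it. In the count that follows, start sites are those of the annotation and were not measured, and the C had to be at that exact base. The count therefore does not tell which other members belong to the class. Of 42 members with a RefSeq promoter window in GRCm38.p6, 2 had a C at the start site followed by a run that made at least 5 pyrimidines in all, 4.76% against 3.1% of 11014 genes. They were Eif2s3x, for the gamma subunit of eIF2, and Eif3f, for a subunit of eIF3, and the windows of 15 bases on each side of the start site are shown with the run in capitals.
Eif2s3x (chrX:94212637-94212666, minus strand): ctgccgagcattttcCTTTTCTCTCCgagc
Eif3f (chr7:108934400-108934429, plus strand): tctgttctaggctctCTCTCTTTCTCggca
The letters CACGTG, which read the same on both strands and are the E-box bound by Myc among other factors, were found between 250 bases before and 50 after the start site in 10 of the 42 members. That is 23.8% of the members against 11.8% of the 11014 genes, with 1.31 windows per member and 1.27 per gene. They were the promoters of Eif1b, Eif3a, Eif3f, Eif3k, Eif4a1, Eif4e, Eif4g1, Eif4h, Eif5a and Eif5a2. Examples from the 3 components of eIF4F and from Eif5a2, with the E-box in capitals, are the following.
Eif4e (chr3:138527197-138527216, plus strand): cgtccgtCACGTGggcagga
Eif4g1 (chr16:20672666-20672685, plus strand): tgggtgtCACGTGatggggc
Eif4a1 (chr11:69672600-69672619, minus strand): gcctccgCACGTGtaaaggt
Eif5a2 (chr3:28781153-28781172, plus strand): cgagcttCACGTGacggggc
Members with these letters were found on both sides of 0. Eif1b, Eif3f, Eif3k, Eif4a1, Eif4e, Eif4h and Eif5a were higher in the knockout library, and Eif3a, Eif4g1 and Eif5a2 were lower. Of all genes compared, 66.0% were higher. The log2 ratios were 0.75 for Eif4e and 0.56 for Eif4a1 against -0.53 for Eif4g1 and -0.68 for Eif5a2. That of Eif4e changed direction with how its models were counted, as given below. Searched on both strands, CCGGAAGT was in 8 members (19.1%, against 8.63% of genes), the NRF1 motif in 7 (16.7%, against 10.9%), AAGATGGC in 4 (9.52%, against 4.89%) and TGACGTCA in 0 (against 3.5%). These matches describe the letters in the windows and are neither sites nor causes.

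Initiation factor transcripts were abundant in both libraries and differed little between them. The median member stood at 66.9 FPKM in the knockout and 54.9 FPKM in the wild-type library, where the median of all genes compared was 12.5 FPKM in the knockout and 11.0 FPKM in the wild-type library. The median log2 ratio of the members was 0.25, against 0.22 over all genes compared. Higher values in the knockout library were found for 34 members and lower values for 17, where 66.0% of all genes were higher and 34.0% lower. At least 2-fold higher values were found for 2 members, Eif5b and Eif4ebp3, and for 7.67% of all genes. A 2-fold lower value was found for 0 members and for 3.5% of all genes. At 1.5-fold, 7 members were higher, against 22.7% of genes, and 2 members, Eif4ebp2 and Eif5a2, were lower, against 9.01% of genes. At the exon level 34 members were higher (62.8% of genes), with 4 higher past 1.5-fold (17.0% of genes) and 4 lower (8.66% of genes). Relative to the median gene 27 members lay above (51.2% of genes) and 24 below (48.8% of genes), and past 2-fold there was 1 member above (4.87% of genes) and 0 below (5.41% of genes). The bounds of the libraries lay apart for 25 members higher in the knockout library (35.5% of genes) and for 8 lower (16.1% of genes). Most members thus differed by less than 1.5-fold between the libraries.

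**Figure D1:**
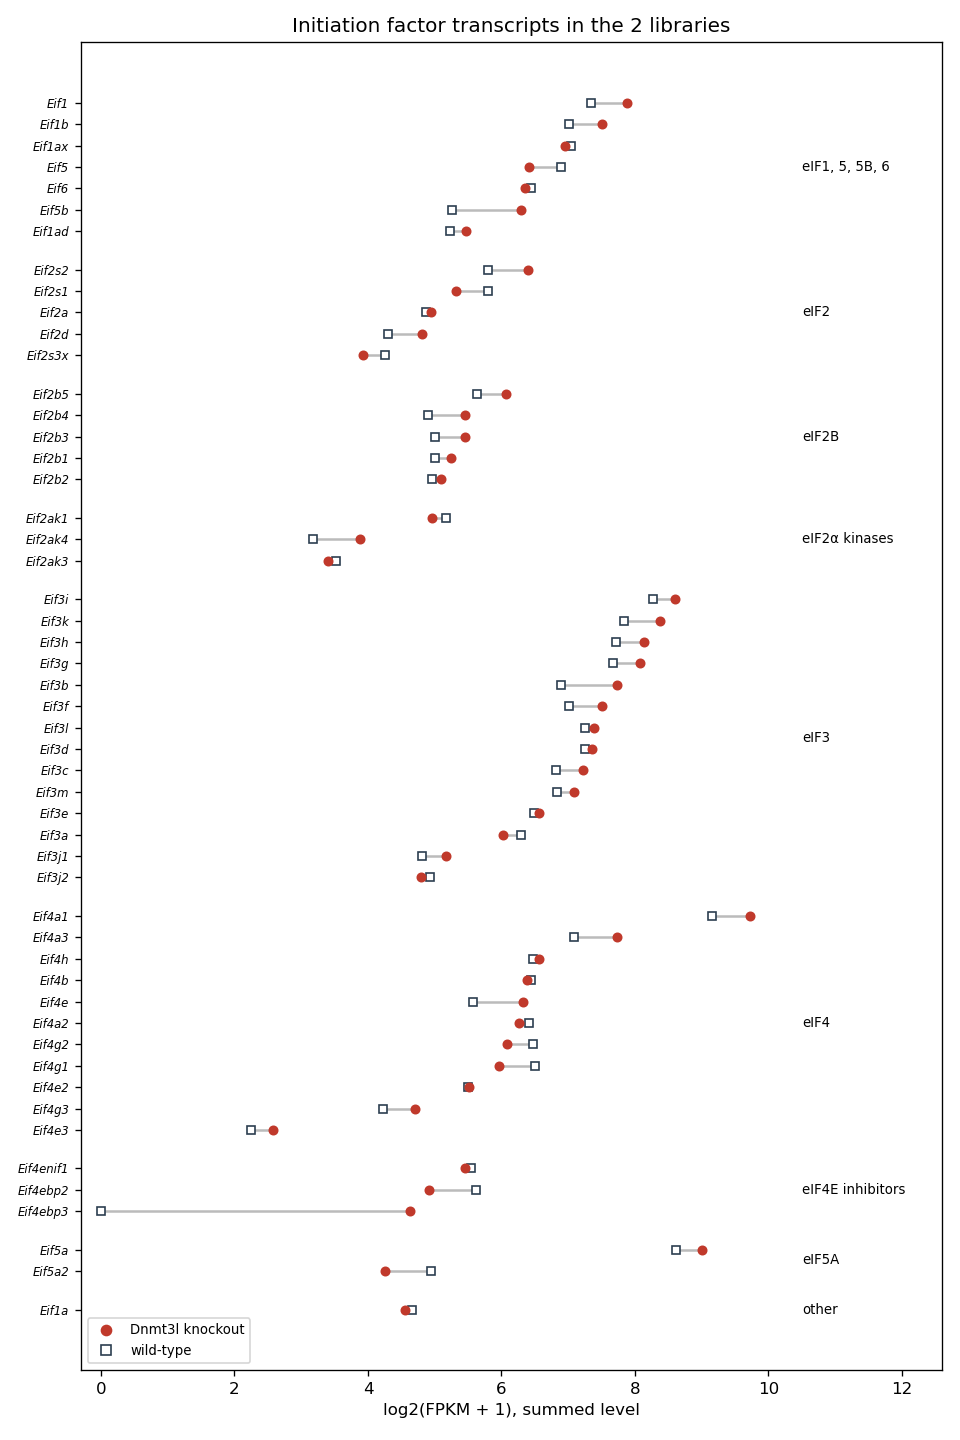
Summed level of each of the 51 compared members, grouped by complex, on a log2(FPKM + 1) axis, with filled circles for the Dnmt3l knockout and open squares for the wild-type library; there is 1 value per library and no error bar. Eif4a1, Eif5a and the small eIF3 subunits lie to the right in both libraries, and the long line belongs to Eif4ebp3, listed at 0 in the wild-type library.

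Among the factors that police the start codon, Eif1 was the most abundant, at 236 FPKM (bounds 227 to 246) in the knockout and 160.5 FPKM (153 to 169) in the wild-type library, a log2 ratio of 0.55. Its close copy Eif1b stood at 181 FPKM in the knockout and 129 FPKM in the wild-type library, a log2 ratio of 0.49; the knockout estimate lay above its own upper bound of 159. Eif1ax, the X-linked gene of eIF1A, stood at 123 FPKM in the knockout and 131 FPKM in the wild-type library, and its autosomal counterpart Eif1a at 22.6 FPKM in the knockout and 24.1 FPKM in the wild-type library. Both eIF1A genes had a log2 ratio of -0.09, so as deposited the eIF1 genes were higher and the eIF1A genes slightly lower. The bounds of both eIF1A genes overlapped, and with the coverage their ratios were 0.04 for Eif1ax and 0.03 for Eif1a. With the median of genes of like length removed, Eif1 was at 0.05 and Eif1b at -0.06. Eif5, for the factor that makes eIF2 hydrolyse its GTP, was lower, at 84.5 FPKM (77.7 to 91.4) in the knockout and 118 FPKM (106 to 121) in the wild-type library, a log2 ratio of -0.48. Eif6, which keeps free large subunits from joining, stood at 80.7 FPKM (76.3 to 85.4) in the knockout and 86.2 FPKM (71.0 to 87.3) in the wild-type library. Its log2 ratio was -0.09 summed, 0.25 with RefSeq transcripts only and 0.05 at the exon level. For the exon level the FPKM of all models of either strand over each RefSeq exon base were added up and averaged over the bases. Eif1ad, which shares a domain with eIF1A, stood at 43.4 FPKM in the knockout and 36.4 FPKM in the wild-type library.

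Eif5b, for the GTPase that joins the subunits, stood at 77.3 FPKM (66.4 to 81.4) in the knockout and 37.3 FPKM (36.0 to 39.0) in the wild-type library, a log2 ratio of 1.03 and 0.83 relative to the median gene. The direction depended on how its models were counted. In the wild-type library the 7797-nt RefSeq transcript carried all 37.3 FPKM, whereas in the knockout library it carried 5.55 FPKM and 3 assembled models that ended 5′ of the RefSeq end carried 14.0, 18.2 and 39.6 FPKM. The last of these had 1243 nt in 7 exons. The log2 ratio was -2.55 with RefSeq transcripts only and -0.43 at the exon level. Over the 1000 nt at the 5′ end of the transcript the level was 32.0 FPKM in the knockout and 37.3 FPKM in the wild-type library, and over those at the 3′ end it was 13.1 FPKM in the knockout and 46.2 FPKM in the wild-type library. The 3′ end shares 1240 exon bases with Rev1 on the opposite strand, and no strand-marking step is described in the protocol. The exon and end levels add models of either strand, so Rev1 models over those bases are counted in them. Rev1 stood at 21.2 FPKM in the knockout and 25.1 FPKM in the wild-type library. The wild-type level over the 3′ end was thus above the 37.3 FPKM of Eif5b itself. Eif5b was the only member called 2-fold different that reversed its direction under another measure.

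The eIF2 trimer did not move as a unit in these libraries. Eif2s2, for the beta subunit, stood at 83.6 FPKM (76.9 to 90.4) in the knockout and 54.8 FPKM (49.0 to 55.3) in the wild-type library, a log2 ratio of 0.60. Eif2s1, for the alpha subunit that carries the regulatory phosphorylation, stood at 38.8 FPKM (33.7 to 42.0) in the knockout and 54.9 FPKM (50.4 to 59.4) in the wild-type library, a log2 ratio of -0.49. Eif2s3x, for the gamma subunit that binds GTP, stood at 14.2 FPKM in the knockout and 18.1 FPKM in the wild-type library, a log2 ratio of -0.33. The apparent opposition of alpha and beta shrank at the exon level, to log2 ratios of 0.07 for Eif2s1 and 0.18 for Eif2s2, and with RefSeq transcripts only it turned round, to 1.45 for Eif2s1 and -0.39 for Eif2s2. For Eif2s1 a shorter assembled model of 1675 nt carried 46.5 FPKM in the wild-type library and one of 1322 nt carried 14.2 FPKM in the knockout library. Over the 3′ end of Eif2s1 the level was 24.5 FPKM in the knockout and 8.38 FPKM in the wild-type library, the reverse of its 5′ end, at 38.4 FPKM in the knockout and 54.9 FPKM in the wild-type library. Of the factors that can bring initiator tRNA without eIF2, Eif2d stood at 26.9 FPKM in the knockout and 18.7 FPKM in the wild-type library, and Eif2a at 29.9 FPKM in the knockout and 28.1 FPKM in the wild-type library.

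All 5 subunit genes of eIF2B, the factor that reloads eIF2 with GTP, were higher in the knockout library, summed (66.0% of all genes) and at the exon level (62.8% of all genes). The bounds lay apart for 3 of them, and with the median of genes of like length removed 3 were above 0. The most abundant was Eif2b5, for the catalytic subunit, at 65.8 FPKM (60.7 to 71.0) in the knockout and 48.5 FPKM (45.8 to 51.3) in the wild-type library, a log2 ratio of 0.43. Its ratio was -0.68 with RefSeq transcripts only and 0.15 at the exon level, since a 1755-nt assembled model carried 36.0 FPKM in the knockout library. Eif2b4 had the highest ratio of the complex, 0.55, at 42.8 FPKM in the knockout and 28.9 FPKM in the wild-type library. Eif2b3 had 42.6 FPKM in the knockout and 31.0 FPKM in the wild-type library, and Eif2b1 had 36.9 FPKM in the knockout and 31.2 FPKM in the wild-type library. Eif2b2, at 33.0 FPKM (27.9 to 38.2) in the knockout and 30.2 FPKM (26.0 to 34.5) in the wild-type library, had a log2 ratio of 0.12, which was -0.12 with RefSeq transcripts only and 0.19 at the exon level. The median log2 ratio of the complex was 0.43 summed and 0.21 at the exon level, and 4 of the 5 genes lay above the median gene.

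The kinases that phosphorylate the alpha subunit of eIF2 were represented by 3 genes. Eif2ak1, the heme-regulated kinase, stood at 30.2 FPKM (28.2 to 32.2) in the knockout and 35.1 FPKM (31.8 to 38.5) in the wild-type library. Eif2ak3, the endoplasmic reticulum stress sensor PERK, stood at 9.53 FPKM (8.74 to 10.3) in the knockout and 10.4 FPKM (8.79 to 12.1) in the wild-type library. Bounds overlapped for both, and the log2 ratios of -0.21 and -0.12 became 0.82 and 0.73 with RefSeq transcripts only. Eif2ak4, the amino acid sensor, stood at 13.7 FPKM (10.9 to 16.5) in the knockout and 8.03 FPKM (6.88 to 9.17) in the wild-type library, a log2 ratio of 0.71. That ratio rested on a model of 843 nt in 7 exons at its 3′ end, which carried 8.60 FPKM in the knockout library; the ratio was -0.56 with RefSeq transcripts only and -0.34 at the exon level. At the exon level the 3 ratios were -0.20, -0.07 and -0.34, all below 0, as were those of 37.2% of all genes.

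The eIF3 complex, the scaffold on the small subunit that holds the other factors, had 14 genes, of which 12 were higher in the knockout library (66.0% of all genes were) and 13 at the exon level (62.8% of all genes). The median log2 ratio was 0.35 summed and 0.23 at the exon level. After the median ratio of genes of like length was removed, 4 of the 14, Eif3b, Eif3c, Eif3f and Eif3j1, were above 0, Eif3k was at 0 and 9 were below. The eIF3 genes summed to 2490.5 FPKM in the knockout and 1941 FPKM in the wild-type library. Eif3i, part of a peripheral module with Eif3b and Eif3g, was the most abundant, at 386 FPKM (378 to 402) in the knockout and 306 FPKM (295 to 320.1) in the wild-type library. Eif3g, for an RNA-binding subunit, stood at 270.0 FPKM in the knockout and 202 FPKM in the wild-type library. Eif3b, which anchors that module, stood at 211 FPKM (200.5 to 224) in the knockout and 118 FPKM (113 to 123) in the wild-type library, the highest ratio among the eIF3 genes, 0.84. Its RefSeq transcript carried 106 FPKM in the knockout and 118 FPKM in the wild-type library, and a model of 889 nt over the last 8 exons added 106 FPKM in the knockout library. The Eif3b ratio was -0.15 with RefSeq transcripts only and 0.21 at the exon level.

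Within the core of eIF3, Eif3h stood at 281 FPKM in the knockout and 209 FPKM in the wild-type library, and its partner Eif3f at 181 FPKM in the knockout and 129 FPKM in the wild-type library. Eif3k stood at 329 FPKM in the knockout and 228 FPKM in the wild-type library, a log2 ratio of 0.53, while Eif3l, which pairs with it, stood at 167 FPKM in the knockout and 151 FPKM in the wild-type library, a log2 ratio of 0.14. Eif3c stood at 148 FPKM in the knockout and 111 FPKM in the wild-type library, and Eif3m at 135 FPKM in the knockout and 113 FPKM in the wild-type library. Eif3e stood at 93.7 FPKM in the knockout and 88.3 FPKM in the wild-type library. The knockout estimates of Eif3e, Eif3l and Eif3m, and the wild-type estimate of Eif3m, lay outside their own bounds. Eif3a, the largest subunit, went the other way, at 63.7 FPKM (59.3 to 68.4) in the knockout and 77.2 FPKM (75.3 to 80.3) in the wild-type library. Its log2 ratio was -0.27 summed, -0.99 with RefSeq transcripts only and -0.76 at the exon level, the lowest exon-level ratio of all members. A model of 1423 nt in 2 exons at the 3′ end carried 25.5 FPKM of Eif3a in the knockout library. Eif3d, for the subunit that can bind a cap itself, stood at 164 FPKM (154 to 174) in the knockout and 152 FPKM (147 to 159) in the wild-type library, with a log2 ratio of 0.10 that was -0.64 with RefSeq transcripts only and 0.06 at the exon level. Eif3j1 and Eif3j2, for a loosely held subunit, shared 2367 exon bases in the data, so the division of FPKM between them is uncertain. Eif3j1 stood at 35.1 FPKM (31.3 to 36.6) in the knockout and 27.1 FPKM (24.7 to 29.5) in the wild-type library. Eif3j2 stood at 26.7 FPKM (23.8 to 29.1) in the knockout and 29.5 FPKM (27.0 to 32.0) in the wild-type library, a log2 ratio of -0.14 that was 0.11 at the exon level, where the models of the pair are added.

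In the cap-binding and helicase group, Eif4a1 and Eif4a3 were higher and the scaffold genes Eif4g1 and Eif4g2 lower in the knockout library. Eif4a1 was the most abundant of all members, at 841 FPKM (839 to 867) in the knockout and 569.9 FPKM (554 to 595) in the wild-type library, above 99.4% of the genes compared in each. Its log2 ratio was 0.56 summed, 0.63 at the exon level and 1.28 with RefSeq transcripts only, which carried 841 FPKM in the knockout and 347 FPKM in the wild-type library. Senp3 on one side of Eif4a1 and Cd68 and Mpdu1 on the other, all on the same strand of chromosome 11, had a listed 0 in the knockout library, against 82.1 FPKM for Senp3, 24.6 FPKM for Cd68 and 36.2 FPKM for Mpdu1 in the wild-type library, and whether their reads reached Eif4a1 in the knockout library was not tested. Eif4a2, the paralog with the same activity, stood at 75.8 FPKM in the knockout and 83.8 FPKM in the wild-type library. Eif4a3, the exon junction complex relative, stood at 211 FPKM in the knockout and 136 FPKM in the wild-type library, a log2 ratio of 0.63. It has 1 RefSeq transcript and no assembled model, so RefSeq transcripts only and the exon level repeat this value. Eif4g1, the main scaffold, stood at 61.5 FPKM (60.0 to 64.2) in the knockout and 89.5 FPKM (85.6 to 93.3) in the wild-type library, a log2 ratio of -0.53. Eif4g2 stood at 66.9 FPKM (64.0 to 69.8) in the knockout and 87.8 FPKM (86.1 to 89.6) in the wild-type library, a log2 ratio of -0.39. Eif4g3, a further scaffold gene, was higher, at 25.2 FPKM (23.3 to 27.1) in the knockout and 17.8 FPKM (15.8 to 19.8) in the wild-type library, a log2 ratio of 0.48. Eif4b and Eif4h, cofactors of the helicase, differed by less: Eif4b stood at 82.2 FPKM in the knockout and 85.9 FPKM in the wild-type library, and Eif4h at 93.8 FPKM in the knockout and 88.0 FPKM in the wild-type library.

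Eif4e, for the cap-binding protein itself, stood at 79.3 FPKM (73.6 to 85.4) in the knockout and 46.9 FPKM (44.5 to 49.5) in the wild-type library, a log2 ratio of 0.75. In the knockout library 64.5 FPKM came from an assembled model of 1276 nt in 7 exons and 14.8 FPKM from the RefSeq transcript of 2882 nt, which carried all of the wild-type value. The ratio was -1.59 with RefSeq transcripts only and -0.20 at the exon level. Over the 3′ end the level was 14.8 FPKM in the knockout and 46.9 FPKM in the wild-type library, and over the 5′ end it was 69.6 FPKM in the knockout and 46.9 FPKM in the wild-type library. Eif4e2, a cap-binding relative that represses translation, stood at 44.9 FPKM in the knockout and 44.0 FPKM in the wild-type library. Eif4e3, another relative, stood at 4.99 FPKM (3.89 to 6.12) in the knockout and 3.75 FPKM (3.02 to 4.49) in the wild-type library, with a log2 ratio of 0.33 that was -1.45 with RefSeq transcripts only and 0.20 at the exon level.

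The inhibitors of eIF4E diverged. Eif4ebp3 (chromosome 18, 36664060 to 36666324, plus strand, mm10) stood at 23.8 FPKM (21.3 to 26.4) in the knockout library and had a listed 0 in the wild-type library, with an upper bound of 0.11. It lies next to Ankhd1, with which it is known to form readthrough transcripts. In the wild-type library 2 assembled Ankhd1 models, at 7.14 and 14.0 FPKM, ran on to position 36665791 inside Eif4ebp3, and in the knockout library 2 such models, at 9.88 and 2.45 FPKM, ran on to 36665614. At the exon level, which counts these models, Eif4ebp3 stood at 25.9 FPKM in the knockout and 6.88 FPKM in the wild-type library, a log2 ratio of 1.77. It was the only member past 2-fold at that level, where 4.87% of all genes were 2-fold higher and 2.95% lower. Eif4ebp2 was lower, at 29.1 FPKM (28.0 to 30.6) in the knockout and 48.3 FPKM (42.7 to 53.9) in the wild-type library, a log2 ratio of -0.71 summed and -0.65 at the exon level. Its RefSeq transcript was listed at 0 in the knockout library, where a single 6069-nt model carried the gene, and at 18.6 FPKM in the wild-type library. Eif4enif1, for a protein that carries eIF4E to the nucleus, stood at 42.6 FPKM (39.4 to 45.9) in the knockout and 45.7 FPKM (41.3 to 50.004) in the wild-type library. Its log2 ratio was -0.10 summed and -0.05 at the exon level, and 1.83 with RefSeq transcripts only.

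Eif5a, for the hypusinated factor that relieves stalled ribosomes, was the second most abundant member, at 513 FPKM (508 to 533) in the knockout and 393 FPKM (384 to 409) in the wild-type library, a log2 ratio of 0.39. Its paralog Eif5a2 went the other way, at 18.1 FPKM (17.0 to 19.2) in the knockout and 29.7 FPKM (28.2 to 31.2) in the wild-type library, a log2 ratio of -0.68. No assembled model entered either gene, and both ratios were the same within 0.01 at the exon level. With the median of genes of like length removed, both genes were below 0. Their longest RefSeq transcripts had 1445 nt in Eif5a and 4992 nt in Eif5a2. Dhps and Dohh, which together make hypusine on eIF5A, stood at 51.5 and 45.7 FPKM in the knockout and at 41.3 and 40.6 FPKM in the wild-type library.

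How the models were counted decided the direction of a number of members. Against the summed level, 14 of 51 members had the other direction with RefSeq transcripts only. The share of all genes that did so was not computed. At the exon level 6 members had the other direction. Those 6 were Eif5b, Eif4e and Eif2ak4, which were higher in the knockout library summed and lower at the exon level (6.75% of all genes), and Eif2s1, Eif6 and Eif3j2, which did the reverse (3.52% of all genes). In at least 1 library, assembled models entered the level of 30 of the 51 members compared and of 9418 of the 13817 genes compared. The same direction under every setting tried was found for 19 members. Other pseudocounts and filters cannot change a direction. Centring and the scalings by upper quartile or summed level only lower the ratios, so they cannot turn a lower member. Leaving out assembled models could not turn Eif1, Eif2b3, Eif2b4, Eif3c, Eif3f, Eif3j1, Eif4a2, Eif4a3, Eif4ebp3 or Eif5a2, which had none. The share of all genes with the same direction under every setting was not computed. The 11 higher in the knockout library were Eif1, Eif2b3, Eif2b4, Eif2d, Eif3c, Eif3f, Eif3j1, Eif4a1, Eif4a3, Eif4ebp3 and Eif4g3. The 8 lower were Eif2s3x, Eif3a, Eif4a2, Eif4ebp2, Eif4g1, Eif4g2, Eif5 and Eif5a2.

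**Figure D2:**
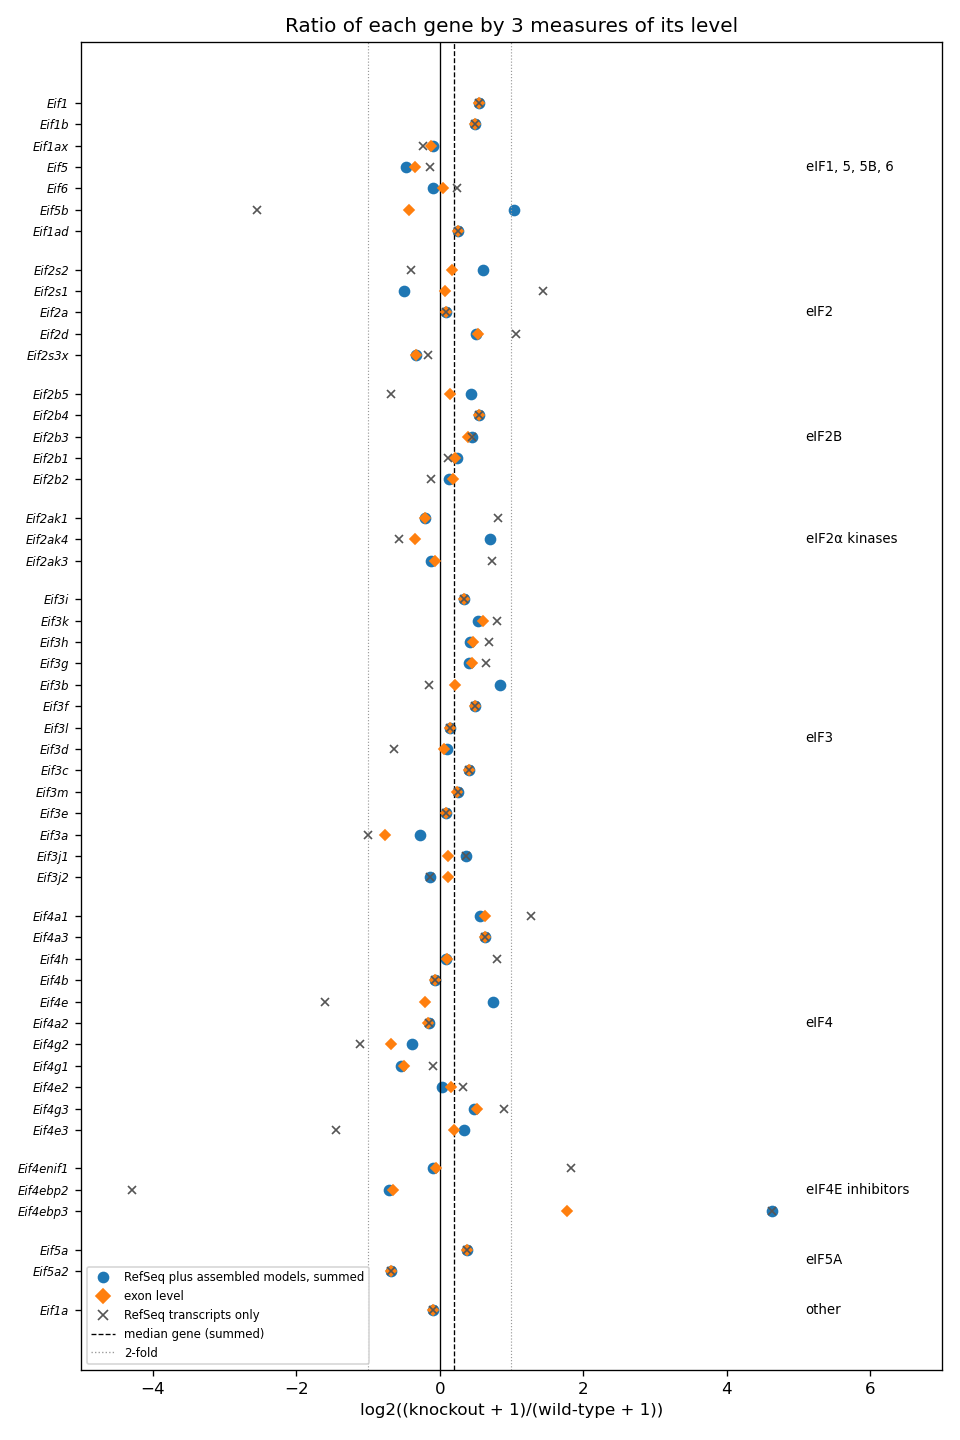
Ratio of the Dnmt3l knockout to the wild-type library for each of the 51 compared members, on a log2((knockout + 1)/(wild-type + 1)) axis, by the summed level (circles), the exon level (diamonds) and RefSeq transcripts only (crosses); the dashed line marks the median gene at 0.21 and dotted lines mark 2-fold. The 3 symbols coincide for genes such as Eif1 and Eif4a3, which have 1 RefSeq transcript and no assembled model. The symbols lie far apart for Eif5b, Eif4e and Eif4ebp2.

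**Figure D3:**
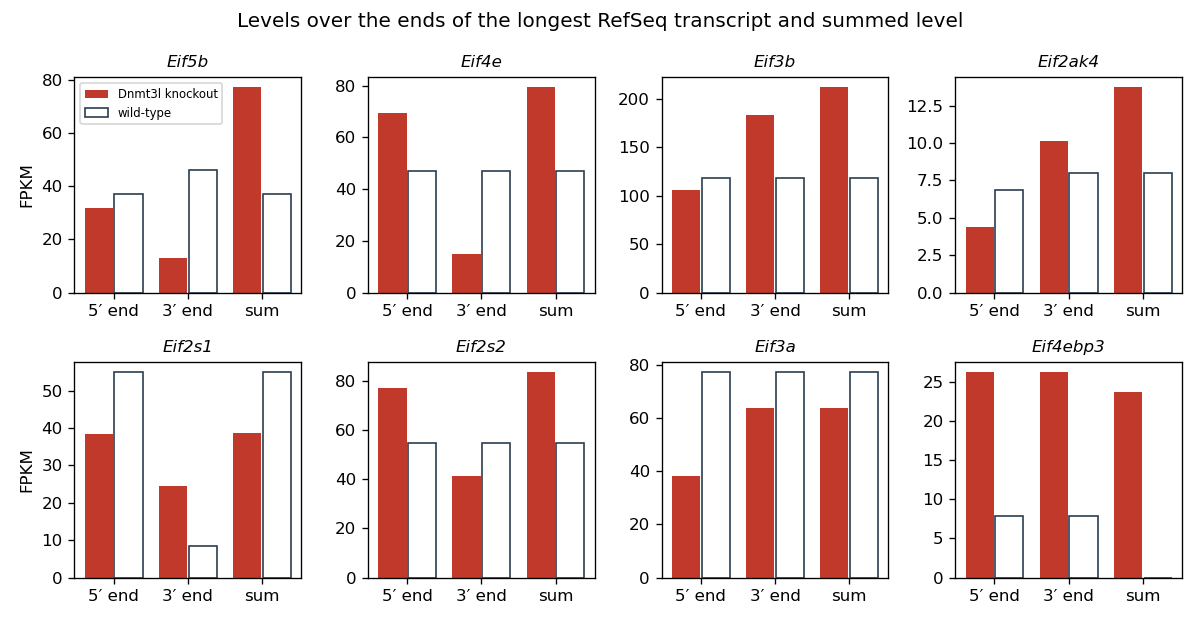
Level in FPKM over 1000 nt at the 5′ and at the 3′ end of the longest RefSeq transcript, and the summed level, for 8 members, with filled bars for the Dnmt3l knockout and open bars for the wild-type library, 1 value each. Each model of either strand adds its whole FPKM to an end it covers, so these are not read depths. The 3′ end of Eif5b includes models of Rev1. For Eif5b and Eif4e the knockout bar is far below the wild-type bar at the 3′ end, and for Eif3b and Eif2ak4 it is above it there and below it at the 5′ end.

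Ratios between members within a library do not depend on how the libraries were scaled. They can still carry the relation to length given below, where longer genes had lower ratios. The longest RefSeq transcripts had 1211 nt in Eif1 and 3966 nt in Eif5, and 1880 nt in Eif4a1 and 3174 nt in Eif4a2. They had 5417 nt in Eif4g1, 6235 nt in Eif4g3, 1445 nt in Eif5a and 4992 nt in Eif5a2. Eif1ax had 926 nt and Eif1a 2879 nt. Eif4e, at 2882 nt, was longer than Eif4ebp2, at 1786 nt. The part of length was not tested. The Eif1 level was 2.79 times that of its opponent Eif5 in the knockout and 1.36 times in the wild-type library, and at the exon level 3.69 times in the knockout and 1.97 times in the wild-type library. The helicase Eif4a1 stood at 11.1 times its paralog Eif4a2 in the knockout and 6.80 times in the wild-type library, and at 13.7 times its scaffold Eif4g1 in the knockout and 6.37 times in the wild-type library. The Eif5a level was 28.3 times that of Eif5a2 in the knockout and 13.2 times in the wild-type library. Eif4g1 stood at 2.45 times Eif4g3 in the knockout and 5.03 times in the wild-type library. By contrast the ratio of Eif1 to its copy Eif1b was 1.30 in the knockout and 1.25 in the wild-type library, and that of Eif1ax to Eif1a was 5.42 in the knockout and 5.41 in the wild-type library. Eif4e stood at 2.73 times its inhibitor Eif4ebp2 in the knockout and 0.97 times in the wild-type library, and at the exon level at 1.40 times in the knockout and 1.02 times in the wild-type library. The ratio of Eif4a1 to Eif4e was 10.6 in the knockout and 12.2 in the wild-type library when summed, but 20.7 in the knockout and 11.6 in the wild-type library at the exon level.

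**Figure D4:**
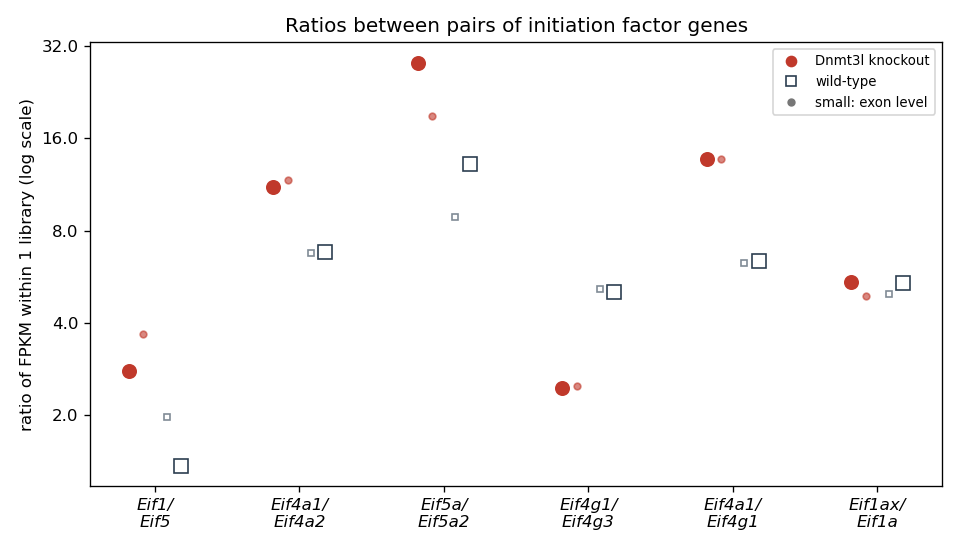
Ratio of the FPKM of 2 member genes within 1 library, on a log axis, for 6 pairs, with filled circles for the Dnmt3l knockout to the left of open squares for the wild-type library; large symbols are summed levels and small symbols exon levels, and there are no error bars. The knockout ratio is above the wild-type ratio for Eif1 to Eif5, Eif4a1 to Eif4a2, Eif5a to Eif5a2 and Eif4a1 to Eif4g1, below it for Eif4g1 to Eif4g3, and level with it for Eif1ax to Eif1a. The genes of a pair differ in transcript length, and the part of length was not tested.

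The ratios of the members were lower in longer transcripts, as were those of all genes. In members with a longest RefSeq transcript under 1500 nt the median log2 ratio was 0.42 and 10 of 12 were higher in the knockout library. From 1500 to 3000 nt the median was 0.25, with 19 of 23 higher, and at 3000 nt or more it was -0.13, with 5 of 16 higher. The medians over all genes in those classes were 0.50, 0.30 and -0.01. Of all genes in them, 2330 of 2698, 3763 of 4951 and 3026 of 6168 were higher. Spearman's rho between length and ratio across genes was -0.32 for the 51 members and -0.40 for all 13817 genes, and at the exon level it was -0.61 for the members and -0.52 for all genes. Among the 21 members without assembled models it was -0.62. The short members include Eif1, Eif1b, Eif3i and Eif3k, all higher, and the long ones include Eif3a, Eif4g1, Eif4g2, Eif5 and Eif5a2, all lower. Genes are not independent replicates, and the part of length in the ratio of any member was not tested.

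**Figure D5:**
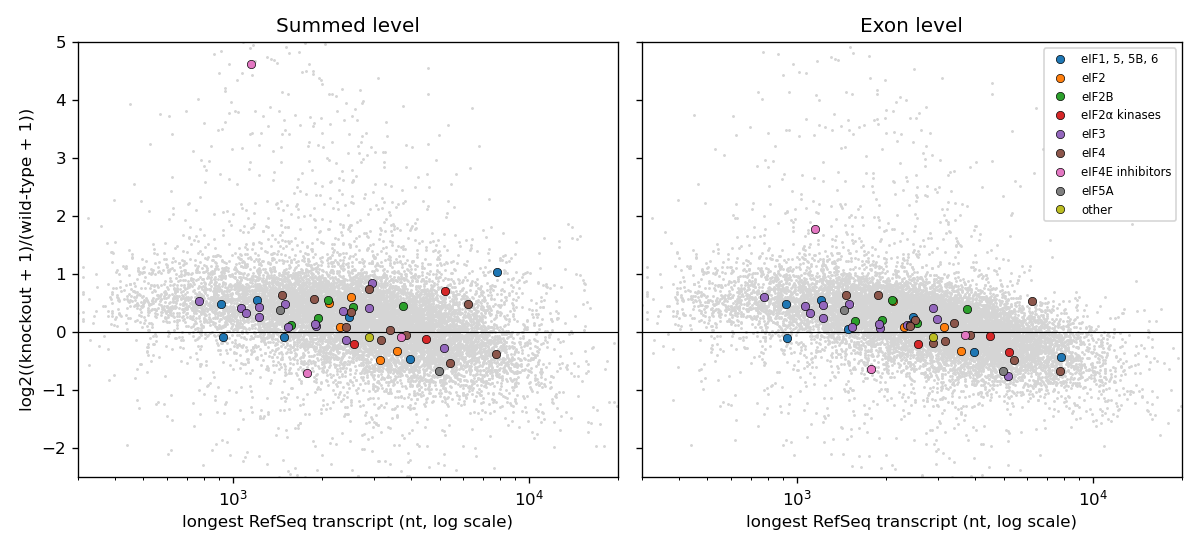
Ratio of the Dnmt3l knockout to the wild-type library on a log2 axis against the length of the longest RefSeq transcript on a log axis, for the summed level (left) and the exon level (right), with members coloured by complex and all other genes in grey; genes outside the plotted ranges are not drawn. Members follow the downward slope of all genes, with Eif5b and Eif4ebp3 above it in the left panel and Eif4ebp3 alone far above it in the right panel.

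Other genes of the pathway stood close to the members. Of all genes compared, 66.0% were higher in the knockout library, 7.67% were at least 2-fold higher and 3.5% at least 2-fold lower. Of 23 partners of initiation without an Eif symbol, such as the poly(A)-binding proteins and the kinases of eIF4E, 13 were higher and 10 lower in the knockout library, with a median log2 ratio of 0.21 and 0 genes past 2-fold. Ddx3x, an RNA helicase that helps scanning through structured leaders, came close, at 29.6 FPKM (27.5 to 30.6) in the knockout and 59.0 FPKM (56.8 to 61.6) in the wild-type library, a log2 ratio of -0.97, and was 2-fold lower relative to the median gene (-1.17). Of 12 elongation and termination factor genes, 9 were higher and 3 lower, with a median of 0.11. Among them Gspt1, for the termination factor eRF3, was past 2-fold at 140.5 FPKM in the knockout and 64.9 FPKM in the wild-type library, a log2 ratio of 1.10 that was -0.08 at the exon level. The knockout estimate of Gspt1 lay above its own upper bound of 128.2. Of 13 measured genes of the integrated stress response, the program that follows phosphorylation of eIF2, 8 were higher and 5 lower, with a median of 0.20. Asns, for asparagine synthetase, stood at 34.2 FPKM (31.8 to 36.6) in the knockout and 10.6 FPKM (9.28 to 11.8) in the wild-type library, a log2 ratio of 1.61 in the summed level and at the exon level. Atf5, a transcription factor whose mRNA is translated under stress, stood at 23.6 FPKM in the knockout library and had a listed 0 in the wild-type library; at the exon level it stood at 24.5 FPKM in the knockout and 2.79 FPKM in the wild-type library. Atf4, the main factor of the response, stood at 93.1 FPKM in the knockout and 63.4 FPKM in the wild-type library, a log2 ratio of 0.55 that was 0.44 at the exon level and -0.31 with RefSeq transcripts only, and its wild-type estimate lay outside its own bounds (54.4 to 61.7). Trib3, one of its targets, stood at 4.22 FPKM in the knockout and 6.15 FPKM in the wild-type library. Ddit3 was listed at 0 in both libraries, and at the exon level it stood at 6.50 FPKM in the knockout and 6.999 FPKM in the wild-type library.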

How the data were processed

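Per the labels' protocols, poly(A) RNA was fragmented, copied from random primers and sequenced as paired ends (HiScanSQ). Per the submitters' processing notes, which give no settings, the build was mm10 and the tools were CASAVA 1.9, TopHat2 2.0.8 and Cufflinks 2.1.1. The authors deposited, for each of 2 libraries, 30073 RefSeq transcripts and the models assembled from its reads (20415 in the knockout and 20579 in the wild-type library), each with an FPKM, its bounds and a coverage. The FPKM was used as deposited, the coverage in 1 alternative, and the score column not at all.

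RefSeq identifiers were named by accession (28942 of 30079), by names in GENCODE or the files, or by exon overlap. A model of at least 300 nt was given to the same-strand gene that covered most of its exon bases; one without a strand needed a share of 0.5. Genes with 1 FPKM in at least 1 library were compared as log2(FPKM + 1) differences, with a pseudocount of 1, so low genes have understated ratios. No depth or counting interval can be given. The computation was tested on simulated data. Every member is described, in full where it was at least 2-fold different, listed at 0 in 1 library, the most abundant of its group, or changed direction between measures. The members and gene lists were chosen with earlier results of these data known. Alternatives were other pseudocounts, filters, scalings, model rules, the coverage, length bins and a 1.5-fold threshold. Promoter and start codon sequences were matched by symbol to RefSeq (GRCm38.p6; 42 of 53 members) and by transcript to GENCODE M21 (50 members, without those on chromosome 18). No protein sequence was used. Python 3.11.15, numpy 2.4.6, pandas 2.3.3 and scipy 1.17.1 were used.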

Additional observations from a re-analysis of the deposited data

How the results depend on the processing

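With 1 library per genotype the alternatives change the counting, not the samples. The median log2 ratio of the members was 0.25. With every member moved at once to the lowest or the highest ratio from its FPKM bounds, it was -0.05 or 0.41. These values are not a confidence interval and cover no difference between animals. The median was -0.047 after scaling by the sum of all genes except the top 50 (all genes -0.044) and -0.095 after the median of 20 length bins was removed. The number of members at least 2-fold higher, 2 as deposited, was 1 with a pseudocount of 5, centred on the median gene, with upper-quartile or total scaling, or at the exon level, 5 with RefSeq transcripts only, 4 with the most abundant RefSeq transcript and 7 at 1.5-fold. The number at least 2-fold lower, 0 as deposited, was 1 with total scaling or after removal of length bins, 5 with RefSeq transcripts only or the most abundant RefSeq transcript, and 2 at 1.5-fold. Eif5b reversed, with a log2 ratio of -2.55 with RefSeq transcripts only and with the most abundant RefSeq transcript, and -0.43 at the exon level, because models of part of the transcript were left out or weighted by the bases they cover. Members with the other direction numbered 7 of 51 when centred or with upper-quartile scaling, 10 with total scaling and 6 with the coverage. They numbered 14 with RefSeq transcripts only and 15 after removal of length bins. The cause was not tested for single members. The shares of all genes turned by these alternatives were not computed, nor were those past 2-fold with RefSeq transcripts only. No paired analysis was possible because there was 1 library per genotype. The depth is unknown, so no lower limit of detection can be given for members listed at 0.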
